A study of Mus musculus with 24 samples.

Results

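The hearts described here are the 7 left ventricles labelled high ejection fraction among 13 mice with a cardiac-specific knockout of EP4 (KO high EF, hearts 7 to 13), 7 of the 24 hearts in the series. They were chosen by that label alone. They were set against 11 wild-type hearts (WT 1 to 11), and the 6 KO hearts labelled low EF served to show where KO high EF hearts differ. All mice were male and of a mixed genetic background, and no drug or surgery is named for any group. Ejection fraction, the percentage of blood that the ventricle expels with each beat, was 45.9%, 53.7% and 76.4% (lowest, median, highest) in KO high EF hearts, 13.7% to 34.0% in KO low EF hearts and 71.4%, 81.0% and 86.1% in WT hearts. Only KO high EF heart 13, at 76.4%, lay inside the WT range. Mean age was 30.6 weeks in KO high EF mice, 30.8 weeks in KO low EF mice and 31.5 weeks in WT mice. KO high EF and WT ages differed by -0.929 weeks (exact permutation test, two-sided, p = 0.433). Total RNA of each heart was read on 1 Illumina mouse array. The labels used here name neither the promoter behind the recombinase nor whether WT mice carried it.

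EP4, the product of Ptger4, is a receptor for prostaglandin E2 that couples to the protein Gs and raises cyclic AMP. Prostaglandin E2 is made from arachidonic acid by cyclooxygenases and a terminal synthase, and cardiac myocytes carry EP4 on their surface. A ventricle under chronic load or injury typically switches on natriuretic peptide genes and fetal contractile genes, lays down collagen through its fibroblasts, gains or alters macrophages, and lowers the genes by which it burns fatty acids.

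Several arrays stood apart before any comparison. The array of KO high EF heart 11 had a median correlation of 0.7777 with the other arrays, against 0.968 to 0.9862 for the rest. On that array 855 of 5399 probes that were bright elsewhere fell below the array median, whereas other arrays had 0 to 17 such probes. Overall counts are therefore given with and without heart 11, and those of genes and lists also without it where that moves them most. WT 8, 9, 10 and 11 carried transcripts typical of atrial muscle. Sln, the atrial calcium pump regulator sarcolipin, measured 5.83 to 6.65 (normalized log2 intensity) in KO high EF hearts, against 9.28 to 12.66 in WT 8 to 11 and 5.97 to 6.87 in WT 1 to 7. Myl7, an atrial myosin light chain, measured 6.41 to 6.63 in 6 KO high EF hearts and 10.23 in heart 11, against 9.82 to 12.52 in WT 8 to 11. Myl4, another atrial light chain, measured 8.70 to 9.21 in 6 KO high EF hearts and 11.59 in heart 11, against 11.60 to 14.15 in WT 8 to 11. Sln was thus low in heart 11 while its Myl7 and Myl4 were in or near the range of WT 8 to 11. Of 8 atrial markers kept for testing, 1 was higher and 2 were lower in KO high EF hearts, and without WT 8 to 11 these counts were 3 and 2. The part of these arrays in each result was not tested beyond leaving them out. Array labels read as 4 chips of 6 positions, and each chip held KO high EF and WT hearts. Chip 4 held KO high EF hearts 11, 12 and 13, with the highest ejection fractions of that group, and no KO low EF heart. Chip and ejection fraction can therefore not be fully told apart among KO hearts.

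**Figure D1:**
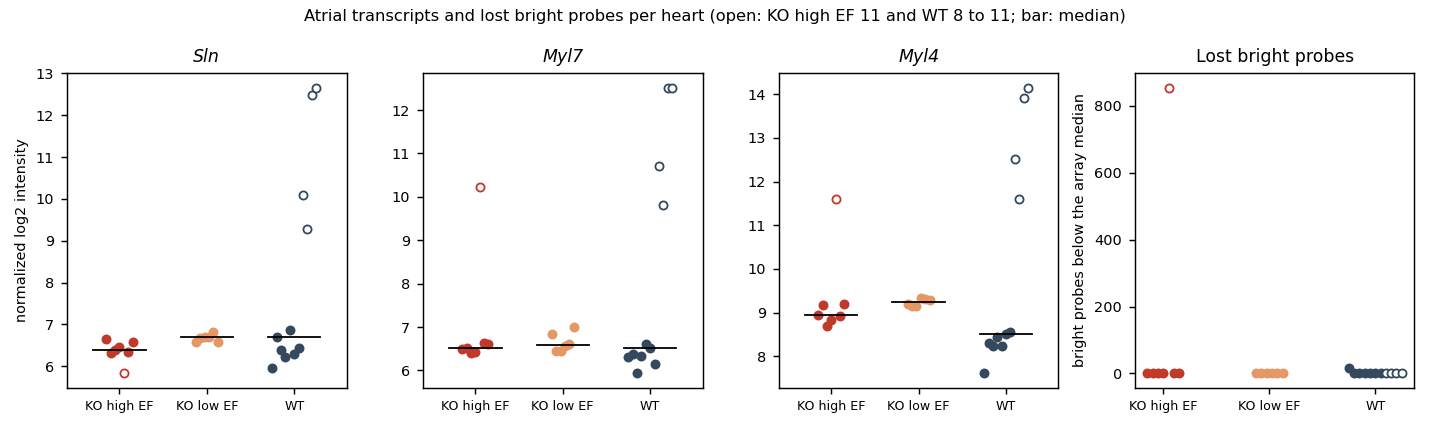
Normalized log2 intensity of Sln, Myl7 and Myl4, and the number of otherwise bright probes below the array median, in each heart, with KO groups left of WT. WT 8 to 11 are high in the atrial transcripts, and KO high EF heart 11 alone has 855 lost bright probes.

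Ventricular markers were bright in KO high EF and WT hearts. The mean level of 11 ventricular myocyte markers was 15.13 to 15.22 in KO high EF hearts, against 15.19 to 15.39 in WT hearts, on a log2 scale that ends near the same top on every array. None of the 11 was called higher and 3 were called lower. They were Ryr2 (-0.33), the calcium release channel, Ckm (-0.34), muscle creatine kinase, and Pln (-0.35), the brake of the calcium pump. Ryr2 and Pln lost the call with arrays scaled to a common median, with or without heart 11, and with the replicate block. Ckm lost it with the replicate block only. The knocked-out gene did not separate the groups. Ptger4 measured 6.52, 7.08 and 8.00 in KO high EF hearts, against 6.72, 6.90 and 7.17 in WT hearts, close to the array median of 6.77. Its difference was 0.20 ± 0.13 (limma, adjusted p = 0.338), and where its probe lies relative to the deleted part was not used here, so it checks neither the labels nor the deletion.

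Across the genome, 3661 of 25425 probes differed between KO high EF and WT hearts (limma with Benjamini-Hochberg adjustment over all probes at 0.05), of which 2160 were higher and 1501 lower in KO high EF hearts. These are 8.5% of the probes higher and 5.9% lower, and each count of genes below is to be read against them. Changes of at least 2-fold were far more often rises, 183 against 66 falls. Without heart 11, 4776 of 25144 probes passed, 9.43% higher and 9.57% lower, and 3257 probes passed both ways. Without WT 8 to 11, 2729 probes passed, 6.78% higher and 4.24% lower. Without both, 4100 probes passed, 8.58% higher and 8.21% lower. The 4 chips gave differences of 1 sign in 92.9% of called probes, against 32.2% of all probes. The called probes were picked on the same arrays, so part of this agreement is built in. With arrays scaled to a common median in place of quantiles and without heart 11, 75.5% of 3033 calls were rises, against 59% of the 3661 and 49.6% of the 4776. In bulk tissue, fewer cells of a type and less RNA per cell cannot be told apart. All 7 KO high EF hearts exceeded every WT heart in 2.16% of probes and lay below every WT heart in 1.09%.

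Timp1, Gdf15 and Nmrk2 were among the genes that rose most. Timp1, an inhibitor of matrix metalloproteinases, measured 11.54, 12.60 and 13.47 (lowest, median, highest) in KO high EF hearts, against 7.94, 8.80 and 10.07 in WT hearts. The groups did not overlap, and the difference of 3.59 ± 0.37 (log2 ± standard error, 12.1-fold, adjusted p = 2.49e-07) was the largest among the genes named by rule. Gdf15, a stress-induced cytokine of the TGF-beta superfamily that lowers appetite through the hindbrain, measured 10.87, 11.22 and 12.40 in KO high EF hearts, against 7.20, 8.22 and 9.36 in WT hearts. All 7 KO high EF hearts exceeded every WT heart, by 2.99 ± 0.25 on average (7.95-fold, adjusted p = 1.94e-08), and the highest value was that of heart 11. Nmrk2, a muscle kinase that makes NAD from nicotinamide riboside, measured 11.24, 12.25 and 13.18 in KO high EF hearts, against 8.20, 9.23 and 10.43 in WT hearts. It rose 7.76-fold without overlap (2.96 ± 0.26, adjusted p = 2.57e-08). Other Nmrk2 probes disagreed, with a rise of 1.90 (adjusted p = 0.0131) and a difference of -0.42 (adjusted p = 0.000159).

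Rcan1, a feedback inhibitor of calcineurin that calcineurin itself induces, measured 10.26, 11.06 and 12.14 in KO high EF hearts, against 7.82, 8.81 and 9.94 in WT hearts. Its difference was 2.26 ± 0.30 (adjusted p = 8.64e-06), while other probes for Rcan1 gave 0.09, or 1.11 without heart 11 (adjusted p = 3.62e-07), and 0.00, or -0.15 without heart 11 (adjusted p = 0.347). Ccn2, the matricellular growth factor CTGF, measured 14.69, 15.04 and 15.66 in KO high EF hearts, against 12.37, 13.27 and 14.51 in WT hearts. It rose by 1.75 ± 0.19 (adjusted p = 6.8e-07) without overlap.

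**Figure D2:**
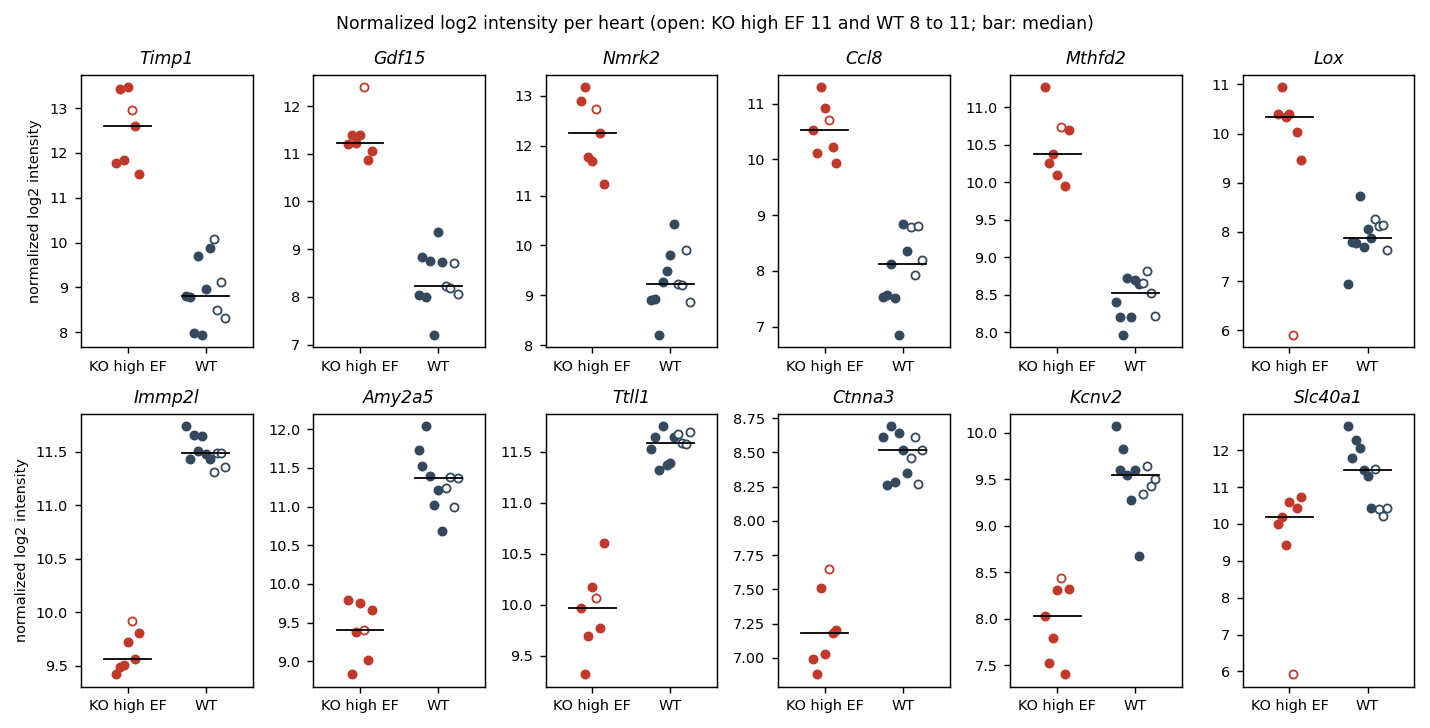
Normalized log2 intensity of 12 genes in each KO high EF and WT heart; open symbols mark KO high EF 11 and WT 8 to 11, and bars are medians. Timp1, Gdf15, Nmrk2, Ccl8 and Mthfd2 are higher and Immp2l, Amy2a5, Ttll1, Ctnna3 and Kcnv2 are lower in every KO high EF heart than in any WT heart, while Lox and Slc40a1 have a low point in heart 11.

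Genes of the cardiac stress and fetal program rose as a group: 17 of 27 kept members were higher and 1 was lower, with a median difference of 0.77 against 0.005 over all probes. Nppa, which encodes atrial natriuretic peptide, measured 15.90, 15.96 and 15.99 in KO high EF hearts, against 13.53, 14.80 and 15.56 in WT hearts. Nppb, for B-type natriuretic peptide, had a lowest value of 15.80 and a median of 15.82 in KO high EF hearts, against 14.02, 14.59 and 15.54 in WT hearts. Neither overlapped, with differences of 1.27 ± 0.23 (adjusted p = 0.000318) for Nppa and 1.20 ± 0.17 (adjusted p = 2.21e-05) for Nppb, both compressed because KO values sit at the top of the scale. Myh7, the slow fetal myosin heavy chain, measured 10.87, 11.38 and 12.80 in KO high EF hearts, against 10.08, 10.75 and 11.40 in WT hearts. It rose by 0.94 ± 0.27 (adjusted p = 0.0167) with overlapping groups, and the call was lost without KO high EF heart 8 (0.75), with the replicate block and under median scaling of the arrays (adjusted p = 0.165). Acta1, skeletal actin, rose by 0.86 (adjusted p = 0.0036), Uck2, a pyrimidine salvage kinase, by 1.40 and Ankrd1, a stretch-responsive repressor, by 0.31 (adjusted p = 0.00131). Acta1 and Ankrd1 lie near the top of the scale, and under median scaling they gave 0.65 (adjusted p = 0.133) and 0.06 (adjusted p = 0.87). Another Ankrd1 probe rose by 0.69 (adjusted p = 2.05e-07) and gave 0.55 under median scaling. Myh6, the adult myosin heavy chain, gave -0.01 (adjusted p = 0.937) on a probe near the top of the scale and fell by 0.41 on another (adjusted p = 0.00743).

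Collagens made up the most uniformly raised list. Of 17 kept genes, 15 were higher and none was lower, with a median difference of 1.09, and their mean level was 10.20 to 11.13 in KO high EF hearts, against 9.29 to 9.76 in WT hearts. The median was 0.85 to 1.55 within the 4 chips. Col1a1, a chain of fibrillar type I collagen, measured 11.15, 11.62 and 12.23 in KO high EF hearts, against 9.45, 9.95 and 10.29 in WT hearts, without overlap (1.75 ± 0.14, adjusted p = 5.27e-09). Col8a1 (1.67), a short-chain vessel collagen, Col16a1 (1.39), a fibril-associated chain, and Col6a1 (1.23), a chain of beaded filament collagen, also rose. Col3a1, for type III collagen, rose by 1.31 (adjusted p = 0.0435) with all arrays and by 1.96 (adjusted p = 2.77e-09) without heart 11, whose value was 6.01, and another probe gave 1.20. It passed in 10 of 32 alternative settings, and every setting in which it lost its call kept heart 11.

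Genes that process and assemble those fibres were also higher in part. Of 19 kept processing and crosslinking genes, 9 were higher and none lower (median 0.43). Adamts2, which trims procollagen ends, rose by 1.60, Loxl1, an elastin crosslinker, by 1.30, Sparc, a collagen-binding glycoprotein, by 1.06 and Pcolce2, an enhancer of procollagen cleavage, by 0.93. Lox, the copper enzyme that crosslinks collagen, measured 9.46 to 10.95 in 6 KO high EF hearts and 5.90 in heart 11, against 6.94, 7.88 and 8.73 in WT hearts. Its rise was 1.73 ± 0.45 (adjusted p = 0.00966) with heart 11 and 2.37 (adjusted p = 2.12e-08) without it. Of 14 microfibril and elastic fibre genes 9 were higher and none lower (median 0.90). Mfap5, a microfibril glycoprotein, measured 11.92, 12.38 and 13.12 in KO high EF hearts, against 9.53, 10.02 and 10.78 in WT hearts, a 5.26-fold rise without overlap. Mfap4, an elastic fibre protein, measured 10.66, 11.04 and 11.74 in KO high EF hearts, against 8.50, 9.07 and 9.67 in WT hearts, a 4.56-fold rise without overlap. Fbn1, the microfibril backbone, rose by 1.55, and Fbln2, a basement membrane and elastic fibre fibulin, by 0.99.

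Of 22 matricellular proteins and small proteoglycans, 13 were higher and none lower (median 0.58). Tnc, tenascin C of remodelling matrix, measured 8.33, 9.25 and 10.45 in KO high EF hearts, against 6.49, 6.82 and 7.16 in WT hearts. The groups were separate (2.29 ± 0.30, adjusted p = 6.38e-06). Bgn, the proteoglycan biglycan, rose by 1.17 and Thbs3, a thrombospondin, by 0.76. Comp, the thrombospondin of cartilage and tendon, measured 8.74, 10.89 and 12.65 in KO high EF hearts, against 7.08 to 7.72 in WT 1 to 7 and 9.95 to 10.53 in WT 8 to 11. It rose by 2.33 ± 0.62 (adjusted p = 0.011) over all WT hearts and by 3.32 without WT 8 to 11, and another Comp probe gave 1.12 (adjusted p = 0.0818). Prg4, the lubricating proteoglycan lubricin, rose by 2.14 on the named probe, against 0.35 on another. Postn, the fibroblast protein periostin, measured 6.24 to 7.42 in KO high EF hearts and 6.06 to 6.57 in WT hearts, near the array median. It rose by 0.53 (adjusted p = 0.0104), and gave 0.46 (adjusted p = 0.0717) without WT 8 to 11.

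Matrix proteases and inhibitors counted 11 higher and 1 lower of 25 (median 0.48), among them Mmp23 (1.29) and Ctsk (1.06), a lysosomal collagenase. TGF-beta family ligands and regulators counted 9 higher and none lower of 19 (median 0.37), with Fstl1 (1.50), a secreted glycoprotein, Tgfb2 (1.26), a ligand, and Fstl3 (0.95), an activin antagonist. Markers of fibroblasts were also higher, 14 of 21 with none lower (median 0.53). Pi16, a marker of adventitial fibroblasts, rose by 1.56, Mgp, an inhibitor of calcification, by 1.02 and Cd248, a stromal cell surface protein, by 0.89. The fibroblast list shares Col1a1, Col3a1 and Postn with the matrix lists, and how far more fibroblasts carry the matrix changes was not tested.

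**Figure D3:**
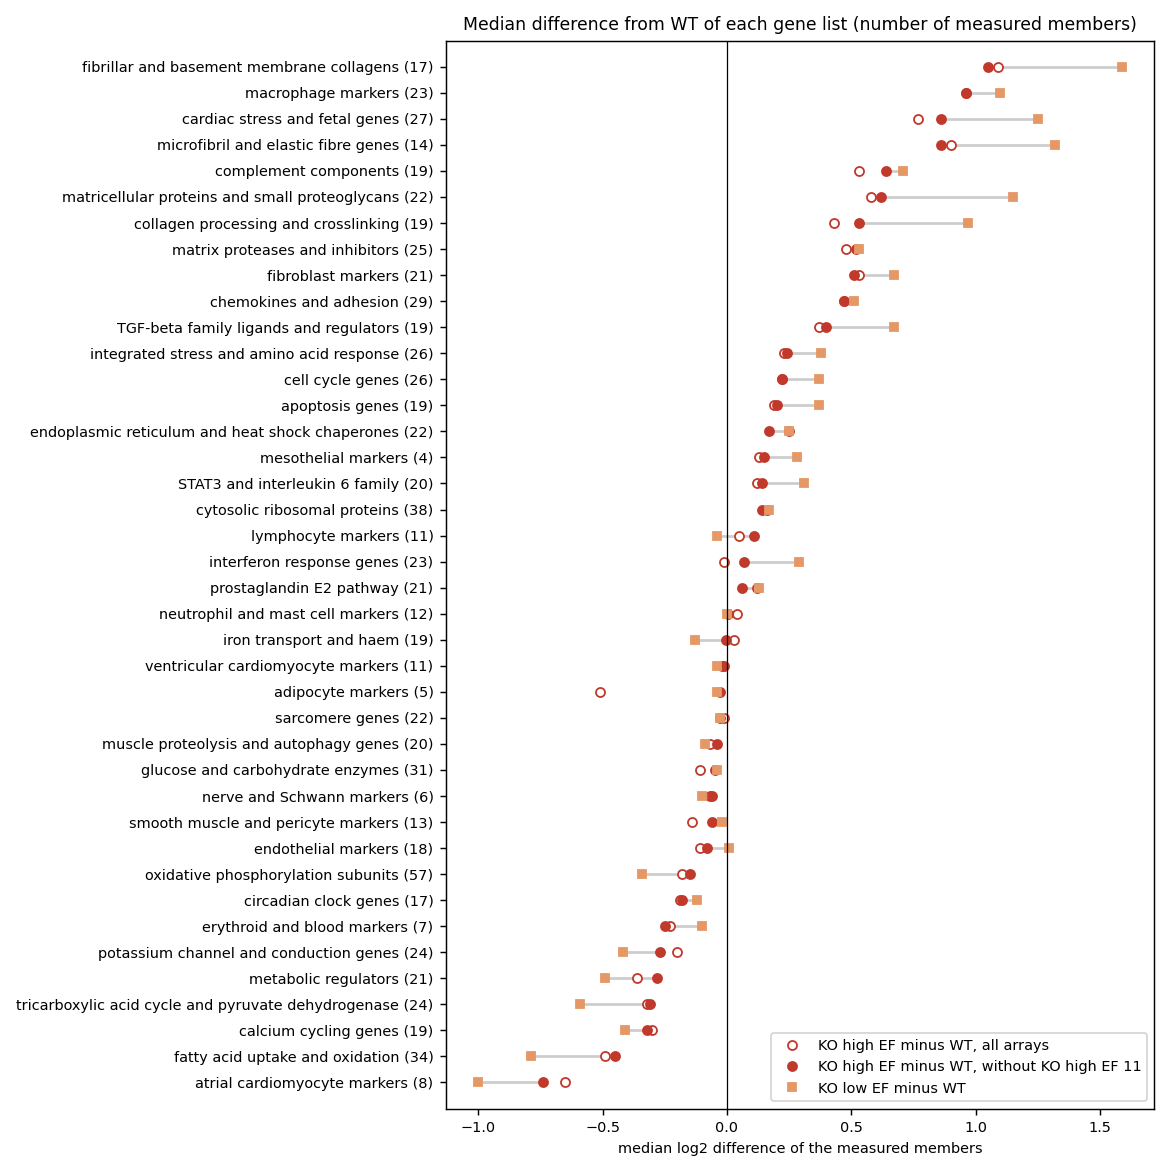
Median log2 difference from WT hearts of each of 40 gene lists, for KO high EF with all arrays (open circles), KO high EF without heart 11 (filled circles) and KO low EF (squares). Collagens (1.09), macrophage markers (0.96) and microfibril genes (0.90) lie farthest to the right for KO high EF, and fatty acid genes (-0.49) are the lowest of the pathway lists.

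Macrophage markers rose almost throughout. Of 23 kept markers 19 were higher and none lower, with a median of 0.96, and their mean level was 10.35 to 10.92 in KO high EF hearts, against 9.52 to 10.02 in WT hearts. Within the chips the median was 0.85 to 1.05. Mrc1, the mannose receptor of tissue-resident macrophages, measured 11.05, 11.39 and 11.83 in KO high EF hearts, against 10.12, 10.31 and 10.64 in WT hearts. It rose by 1.10 without overlap (adjusted p = 1.48e-08). Fcgr3, an activating IgG receptor, rose by 1.30. Lgals3, the lectin galectin-3 that activated macrophages secrete, measured 10.90, 11.46 and 11.96 in KO high EF hearts, against 8.73, 9.39 and 10.98 in WT hearts. The WT maximum reached into the KO range, and the difference was 1.97 ± 0.26 (adjusted p = 6.59e-06).

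Complement genes counted 12 higher and none lower of 19 (median 0.53), namely C4b (1.44), C1qb (1.22), Serping1 (1.12), the C1 inhibitor, and C1qc (1.10) among the named. C1qb and C1qc are also in the macrophage list, and the part of macrophage number in these rises was not tested. Chemokine and adhesion genes counted 13 higher and none lower of 29 (median 0.47). Ccl8, a monocyte-attracting chemokine, measured 9.94, 10.53 and 11.30 in KO high EF hearts, against 6.85, 8.13 and 8.84 in WT hearts. It rose 5.62-fold without overlap (2.49 ± 0.24, adjusted p = 1.21e-07). Ccl12 (1.50), another monocyte chemokine, Cxcl13 (0.84), a B cell attractant, and Ccl21a (0.79), a lymphatic chemokine, rose too. Fgl2, a membrane prothrombinase, measured 9.53, 9.86 and 10.82 in KO high EF hearts, against 7.13, 8.40 and 9.13 in WT hearts, without overlap (1.82 ± 0.24, adjusted p = 9.07e-06).

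Other immune lists moved little. Of 23 interferon response genes 2 were higher and none lower (median -0.01), or 5 higher without heart 11. They were Ifitm1 (0.66), an antiviral membrane protein, and Ifit2 (0.45), an interferon-induced RNA-binding protein. No lymphocyte marker of 11 passed in limma (median 0.05), with 1 at an unadjusted p under 0.05, and of 12 neutrophil and mast cell markers only Kit (0.42), the stem cell factor receptor, did. Kit no longer passed without WT 8 to 11, with arrays scaled to a common median or with the replicate block.

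A set of amino acid stress genes rose as well. In 26 kept genes of the integrated stress and amino acid response, 9 were higher and 2 lower (median 0.23), or 0 lower without WT 8 to 11. This pathway slows translation and, through the factor ATF4, turns on amino acid synthesis; ATF4 with its C/EBP partners binds a composite element with the core TGATGNAA. Mthfd2, a mitochondrial folate enzyme, measured 9.95, 10.37 and 11.27 in KO high EF hearts, against 7.96, 8.52 and 8.81 in WT hearts. It rose 4.06-fold without overlap (2.02 ± 0.16, adjusted p = 5.27e-09). Nupr1, a small stress-induced chromatin protein, measured 10.31, 10.50 and 11.11 in KO high EF hearts, against 9.09, 9.24 and 9.50 in WT hearts (1.34, adjusted p = 8.92e-07). Asns, asparagine synthetase, measured 9.00, 9.64 and 10.43 in KO high EF hearts, against 8.01, 8.48 and 8.81 in WT hearts (1.26, adjusted p = 2.54e-06). Psat1, of serine synthesis, rose by 1.00. Neither Nupr1 nor Asns overlapped between the groups.

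Promoter windows of the RefSeq annotation (GRCm38.p6, 250 bases before to 50 after the gene start) were searched for TGATGNAA on both strands. The core occurred in 1304 of 32851 windows, or 3.97%. Of 20 listed genes with a window 8 held it, and of the 7 called higher with a window 3 held it, which were Asns, Nupr1 and Trib3 (the last named after its value was seen). The windows of Asns (chr6:7693160-7693459, minus strand) and Nupr1 (chr7:126625421-126625720, minus strand) are shown because both genes rose at least 2-fold and hold the core, which stands in capitals. In Asns it begins 23 bases before the gene start on the gene's own strand. In Nupr1 it lies on the other strand, and its first printed base is 110 before the start. A match describes these letters and shows no binding, and the windows of Mthfd2 and Psat1 hold no match.
Asns: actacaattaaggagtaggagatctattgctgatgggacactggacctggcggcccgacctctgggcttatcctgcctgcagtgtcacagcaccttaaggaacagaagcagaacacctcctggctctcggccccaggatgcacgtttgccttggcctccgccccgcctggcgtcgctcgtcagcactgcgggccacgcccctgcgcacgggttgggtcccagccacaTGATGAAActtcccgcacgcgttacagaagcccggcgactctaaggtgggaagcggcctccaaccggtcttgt
Nupr1: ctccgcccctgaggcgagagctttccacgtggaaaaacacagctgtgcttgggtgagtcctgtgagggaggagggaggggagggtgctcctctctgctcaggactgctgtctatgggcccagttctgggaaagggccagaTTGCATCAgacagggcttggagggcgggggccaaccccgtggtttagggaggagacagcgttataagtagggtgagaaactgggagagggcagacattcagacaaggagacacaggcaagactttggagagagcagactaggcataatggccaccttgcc

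Genes for burning fatty acids fell. Of 34 kept genes of fatty acid uptake and oxidation, none was higher and 21 were lower, with a median difference of -0.49, and their mean level was 11.77 to 12.38 in KO high EF hearts, against 12.46 to 12.86 in WT hearts. Within the chips the median was -0.59 to -0.28. Acot1, a cytosolic acyl-CoA thioesterase, measured 8.08, 8.72 and 9.54 in KO high EF hearts, against 9.37, 10.25 and 10.44 in WT hearts. It fell by 1.33 ± 0.16 (adjusted p = 3.43e-06), with 1 KO high EF heart, heart 11, inside the WT range, and its brighter probe fell by 1.68. Slc27a1, a fatty acid transporter, fell by 0.82, and Acacb, the carboxylase that sets entry into mitochondria, and Acsl1, which activates long-chain fatty acids, each fell by 0.62. Acsm5, a medium-chain acyl-CoA synthetase, measured 6.75, 6.99 and 7.18 in KO high EF hearts, against 7.94, 8.30 and 8.73 in WT hearts. Those groups did not overlap (-1.31 ± 0.10, adjusted p = 3.66e-09), although KO values lay near the array median.

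Of 21 metabolic regulators none was higher and 8 were lower (median -0.36), or 12 lower without heart 11. Esrrg (-0.58), Esrrb (-0.44), both estrogen-related receptors, Rxrg (-0.53), a retinoid X receptor, and Ppargc1a (-0.45), the coactivator of mitochondrial biogenesis, all fell. The tricarboxylic acid cycle list counted 1 higher and 10 lower of 24 (median -0.32). The lower count was 15 without heart 11, 6 without WT 8 to 11 and 13 without both. Mdh2 (-0.33) and Idh3a (-0.29), enzymes of the cycle, fell, while Idh3b (0.42), a subunit of the same dehydrogenase as Idh3a, rose. Subunits of oxidative phosphorylation counted none higher and 14 lower of 57 (median -0.18), and 23 lower without heart 11. Atp5c1 (-0.51), of the ATP synthase, Cox7b (-0.49), of complex IV, and Ndufs4 (-0.42) and Ndufb11 (-0.41), of complex I, were the named falls.

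Carbohydrate enzymes moved both ways, with 5 higher and 11 lower of 31 (median -0.11), or 3 higher without WT 8 to 11. Pfkp, the platelet form of phosphofructokinase, rose by 1.10 and Hk2, hexokinase 2, fell by 0.33. Amy2a5, a pancreatic amylase, measured 8.83, 9.41 and 9.79 in KO high EF hearts, against 10.69, 11.37 and 12.04 in WT hearts. The groups did not overlap (-1.92 ± 0.15, adjusted p = 8.49e-09). Amy1, salivary amylase, fell by 1.42, and the 2 genes are near-identical, so probes may read both; another Amy2a5 probe fell by 0.61.

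Channel and calcium-handling genes leaned lower. Of 24 potassium channel and conduction genes 1 was higher and 7 were lower (median -0.20). The lower count was 9 without heart 11, 4 without WT 8 to 11 and 7 without both. Kcnv2, a silent subunit that modifies Kv2 channels, measured 7.40, 8.03 and 8.44 in KO high EF hearts, against 8.67, 9.55 and 10.07 in WT hearts. It fell by 1.53 ± 0.15 without overlap (adjusted p = 2.01e-07). Kcnd2, a pore subunit of the transient outward current, fell by 1.43 with heart 11 and by 1.09 without it, Kcnj3, an atrial G protein-gated subunit, by 0.64, and Kcnj2, of the inward rectifier, by 0.37, a call lost without WT 8 to 11. Kcnk1, a leak channel outside that list, fell by 1.29. Of 19 calcium cycling genes 2 were higher and 5 lower (median -0.30), or 8 lower without heart 11. Camk2b, a calmodulin kinase, fell by 0.82, Hrc, a calcium-binding protein of the sarcoplasmic reticulum, by 0.60 and Ryr2 by 0.33. S100a1, an enhancer of calcium cycling, rose by 0.37, a call lost under median scaling (limma, adjusted p = 0.501). Ryr2 lost its call there too, and with the replicate block. Atp2a2, the calcium pump SERCA2, gave -0.03 (adjusted p = 0.705) on its bright probe and fell by 0.31 on another (adjusted p = 0.0053). Sarcomere genes counted 1 higher and 2 lower of 22 (median -0.01), namely Mylk3 (-0.43), the cardiac myosin light chain kinase, Tcap (-0.37), a titin cap, and Tpm1 (0.26), a tropomyosin. The last 2 lost significance without heart 11.

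The sharpest falls outside these lists concerned genes of varied roles. Immp2l, a subunit of the mitochondrial inner membrane peptidase, measured 9.42, 9.56 and 9.92 in KO high EF hearts, against 11.31, 11.49 and 11.74 in WT hearts. No heart came near the other group's range, and the difference of -1.87 ± 0.08 had an adjusted p of 9.26e-15. Ttll1, a tubulin polyglutamylase subunit, measured 9.32, 9.97 and 10.61 in KO high EF hearts, against 11.32, 11.59 and 11.75 in WT hearts. It fell by 1.62 without overlap, while another of its probes gave 0.03. Ctnna3, the alpha-T-catenin of the intercalated disc, measured 6.88, 7.18 and 7.65 in KO high EF hearts, against 8.26, 8.52 and 8.69 in WT hearts, also without overlap (-1.27 ± 0.09, adjusted p = 3.66e-09). Gpr22, an orphan receptor of heart and brain, fell by 1.24 and Art4, a mono-ADP-ribosyltransferase of the Dombrock blood group, by 1.29.

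Members of the prostaglandin E2 pathway list other than Ptger4 counted 5 higher and none lower of 21 (median 0.12), or 2 lower without heart 11. The rises named here concern prostacyclin, thromboxane and prostaglandin D synthases and an arrestin, not prostaglandin E2 synthases or receptors. Ptgis, prostacyclin synthase, measured 11.49, 11.79 and 12.37 in KO high EF hearts, against 10.41, 10.81 and 11.10 in WT hearts, without overlap (1.08, adjusted p = 3.83e-07). Tbxas1, thromboxane synthase, rose by 0.79, Arrb2, a receptor arrestin, by 0.50 and Ptgds, a prostaglandin D synthase, by 0.40, a call lost without WT 8 to 11. The STAT3 and interleukin 6 family list counted 3 higher and 2 lower of 20 (median 0.12), or 5 higher without heart 11. Socs3, the feedback inhibitor of that pathway, rose by 1.40, Lbp, an acute-phase protein, by 1.18 and Bcl3, an NF-kappa-B partner, by 0.57, and Lifr, a receptor chain, fell by 0.48.

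Smaller shifts filled the remaining lists. Chaperones counted 7 higher and 1 lower of 22 (median 0.25), with the heat shock proteins Hspb1 (0.73) and Hsp90aa1 (0.70) and the disulfide isomerases Pdia4 (0.64) and Pdia3 (0.46) higher. Cell cycle genes counted 6 higher of 26 (median 0.22), with Cdkn1a (1.19), an inhibitor of the cycle, beside Tyms (0.65), of thymidine synthesis, Prc1 (0.55), of cytokinesis, and Mcm3 (0.35), of the replicative helicase. Apoptosis genes counted 7 higher and 1 lower of 19 (median 0.19), with Tnfrsf12a (1.06), the TWEAK receptor, and Bcl2 (0.69), a survival protein. Among 20 genes of muscle proteolysis and autophagy 2 were higher and 2 lower (median -0.07), or 4 and 5 without heart 11, and the muscle ubiquitin ligases Trim63 (-0.52) and Fbxo32 (-0.51) both fell. Iron and haem genes counted 4 higher and 5 lower of 19 (median 0.03, or -0.01 with arrays scaled to a common median), with Hmox1 (0.97), haem oxygenase, and Trf (0.85), transferrin, higher and Hjv (-0.55), a co-receptor that controls hepcidin, and Fech (-0.54), the last enzyme of haem synthesis, lower. Circadian genes counted 3 lower of 17 (median -0.19). Ribosomal protein genes counted 17 higher of 38 (median 0.16), against 6 higher without WT 8 to 11, and their median was 0.005 when arrays were scaled to a common median instead; Rplp1 changed sign there, at -0.03 (adjusted p = 0.881).

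Markers of other cell types were mostly level. No endothelial marker of 18 passed in limma (median -0.11), with 3 at an unadjusted p under 0.05. Smooth muscle and pericyte markers counted 2 higher and 1 lower of 13, with Acta2 (0.78) and Des (0.46) higher. Both lost the call under median scaling (limma, adjusted p = 0.0902 for Acta2 and 0.267 for Des). Erythroid and blood markers counted 1 higher, Pf4 (0.87), and 1 lower, Alas2 (-1.08), of 7. Krt18 (1.22) alone rose of 4 mesothelial markers, Ncam1 (0.74) alone of 6 nerve markers, and Adig (-0.72) alone fell of 5 adipocyte markers. Alas2 passed in 16 of 32 alternative settings and Ncam1 in 11. Every setting in which Ncam1 lost its call kept heart 11, and its difference over the settings was 0.39 to 1.21.

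KO high EF heart 13 had an ejection fraction inside the WT range. It lay above every WT heart in 16 of 16 named rises and below every WT heart in 12 of 12 named falls, genes whose choice used heart 13. Above every WT heart were 13 of its 17 collagens, 16 of 23 macrophage markers and 11 of 14 microfibril genes, and below every WT heart were 22 of 34 fatty acid genes and 21 of 57 oxidative phosphorylation subunits. Over all probes it exceeded every WT heart in 9.4% and lay below every WT heart in 9.28%, against 5.36% to 19.5% and 5.99% to 19.3% for a WT heart against the other WT hearts. The other KO high EF hearts had 12.1% to 41.9% above and 11.9% to 23.4% below, so heart 13 had the smallest share of extreme values among them. Every KO high EF heart except heart 11 lay inside the range of single WT hearts. WT 1 alone set the top of that range, and the next WT heart, WT 3, had 11.3% above and 10.4% below. Heart 13 lay under these shares of WT 3, and the other KO high EF hearts lay over them.

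**Figure D4:**
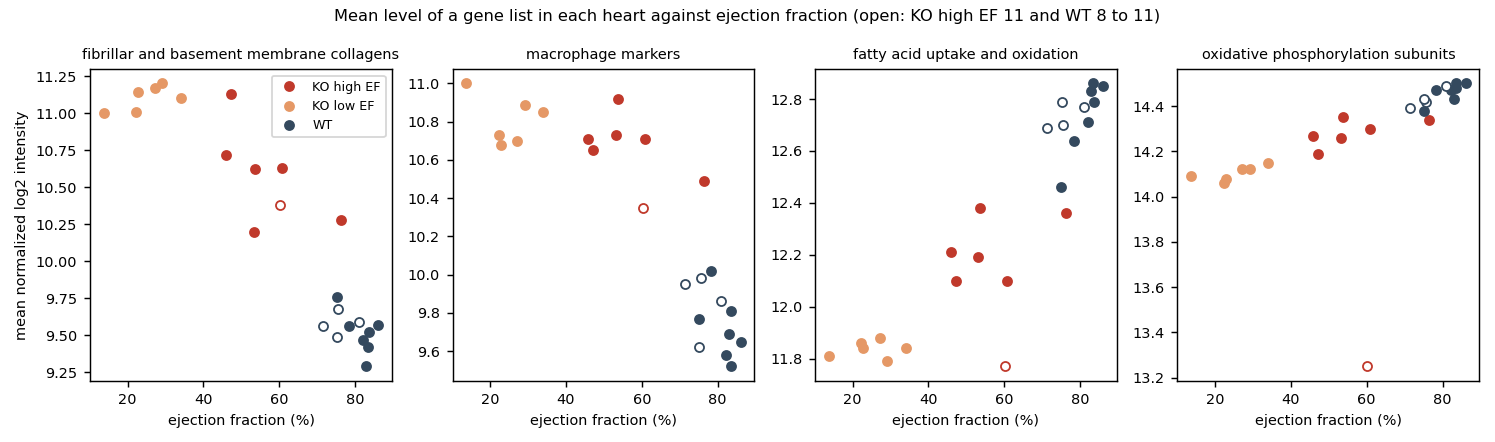
Mean normalized log2 level of collagens, macrophage markers, fatty acid genes and oxidative phosphorylation subunits in each heart against its ejection fraction in percent. KO high EF hearts, heart 13 at 76.4% included, lie above WT hearts for collagens and macrophage markers and below them for fatty acid genes.

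Set against KO low EF hearts, KO high EF hearts differed in a small share of probes. Between the KO groups 743 probes differed, 0.932% higher and 1.99% lower in KO low EF hearts, and without heart 11 the shares were 1.85% and 2.44%. Genes with a usable symbol that changed at least 2-fold in KO high EF hearts with and without heart 11 were 120 rises and 29 falls, and 0 of them passed in the opposite direction between the KO groups. The probes named IGHV1S35 and LOC382696, which have no such symbol, did. Of fatty acid genes 18 of 34 were lower in KO low EF hearts, with medians against WT of -0.49 for KO high EF and -0.79 for KO low EF, which share the WT hearts. That count was 22 without heart 11, 14 without WT 8 to 11, 11 with the chip as a block, 1 with arrays scaled to a common median and 0 with the replicate block. Oxidative phosphorylation counted 10 of 57 lower in KO low EF hearts, or 4 without heart 13, 3 with the chip as a block and 0 with median scaling or the replicate block. Microfibril genes counted 5 of 14 higher there, or 2 with the chip as a block and 0 with median scaling or the replicate block. Collagens counted 4 of 17 higher, or 9 without heart 11, 1 with median scaling and 0 with the replicate block. The KO groups share no replicate number, so the replicate block compares them only through WT hearts. Counts were not tested against each other. Nmrk2, for example, was higher in KO low EF hearts by 1.31 (adjusted p = 0.0166) and Col1a1 by 0.58 (adjusted p = 0.0422).

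Of 23 macrophage markers 1 differed between the KO groups, beside 0.932% of probes higher and 1.99% lower in KO low EF hearts, with medians against WT of 0.96 for KO high EF and 1.10 for KO low EF. The genes chosen for the smallest gap between the KO groups included Fcgr2b, the inhibitory IgG receptor, which measured 9.81, 9.91 and 10.48 in KO high EF hearts, 9.81, 9.96 and 10.42 in KO low EF hearts and 8.23, 8.78 and 9.29 in WT hearts. Another Fcgr2b probe gave a difference of 0.09 (adjusted p = 0.556). Vsig4, a complement receptor of resident macrophages, measured 9.06, 9.81 and 9.99 in KO high EF hearts, 9.27, 9.65 and 9.98 in KO low EF hearts and 7.62, 8.27 and 8.82 in WT hearts. Clec4n, the lectin receptor dectin-2, rose by 1.32 over WT, and Mrc1 was in the same set, as was Nppa, whose values in both KO groups lie at the top of the scale. In each of these genes both KO groups lay wholly above WT. Ccl8 differed from WT by 2.49 in KO high EF hearts and by 1.88 in KO low EF hearts, a gap between KO groups of -0.61 that did not pass (adjusted p = 0.297). Among falls of that kind, Slc40a1, the iron exporter ferroportin, fell by 1.70, or by 1.08 without heart 11, and its gap between the KO groups was -0.10 with heart 11 and -0.72 without it (adjusted p = 0.317). Its call against WT was lost under median scaling, with the chip as a block and with the replicate block (adjusted p = 0.149). Kifap3, a kinesin adaptor, fell by 1.18, or by 1.01 without heart 11, and Ctnna3 and Art4 were in the same set.

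Probes named for immunoglobulin segments, and LOC382696, whose name is a locus number, separated the genotypes without overlap apart from heart 11. They were singled out after their values were seen. The probe named IGHV1S35 measured 9.25, 9.79 and 10.23 in KO high EF hearts, 8.64 to 9.34 in KO low EF hearts and 6.25, 6.44 and 6.81 in WT hearts. The WT values are at the array median, and the difference was 3.34 ± 0.11 (adjusted p = 1.77e-16). The probe named LOC382696 measured 9.32, 10.00 and 10.33 in KO high EF hearts, 8.79 to 9.73 in KO low EF hearts and 6.20, 6.50 and 6.79 in WT hearts, a difference of 3.46 ± 0.13 (adjusted p = 2.18e-15). Both were lower in KO low EF than in KO high EF hearts, by -0.71 (adjusted p = 0.00345) for IGHV1S35 and -0.63 (adjusted p = 0.0209) for LOC382696. IGHV1S120 and IGHV1S13 rose by 3.03 and 2.84, with heart 11 at 6.01 and 6.02, or by 3.61 and 3.43 without it. Their KO low EF minus KO high EF differences were -0.12 and -0.14 with heart 11. Without it they were -0.66 (limma, adjusted p = 0.00753) and -0.69 (adjusted p = 0.00735). Constant-region and joining-chain genes of antibodies differed by 0.35 for Ighm (adjusted p = 0.234), 0.38 for Igkc (adjusted p = 0.236) and 0.17 for Jchain (adjusted p = 0.491), with overlapping groups. What the IGHV probes and LOC382696 detect was not tested.

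**Figure D5:**
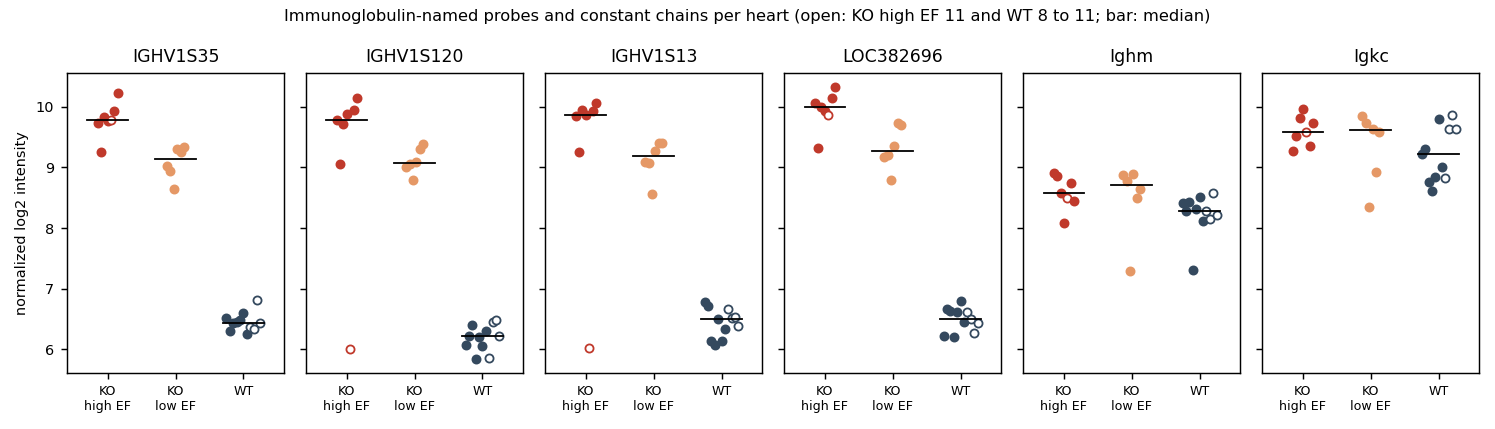
Normalized log2 intensity of 4 probes (IGHV1S35, IGHV1S120, IGHV1S13 and LOC382696) and of Ighm and Igkc in each heart, KO groups left of WT. The 4 probes separate the genotypes, except that KO high EF heart 11 is at 6.01 for IGHV1S120 and 6.02 for IGHV1S13. IGHV1S35 is at 8.64 or above in all KO hearts and at 6.81 or below in all WT hearts, while Ighm and Igkc overlap between groups.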

How the data were processed

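Left ventricular RNA of 24 male mice was read on 1 Illumina array per heart. The authors deposited unnormalized probe intensities on a linear scale, read with BeadStudio per the submitters' processing notes, with no detection p-values. The authors also deposited normalized log2 values, used as an alternative, and a summary table of log2 group means and standard deviations, used to name probes. The notes also list R 2.8.0.

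In limma 3.58.1 (R 4.3.3, data.table package, version 1.17.8), normexp with an offset of 50 removed background, and quantile normalization followed on the log2 scale, which compresses the brightest probes. Probes above their array's median on at least 6 arrays were kept, 25425 of 45281. KO high EF, KO low EF and WT means were fitted together (lmFit, eBayes, two-sided) and Benjamini-Hochberg adjustment ran over every kept probe, with a threshold of 0.05. The labels do not say that hearts share litters or batches. Precision is limited by the number of arrays.

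The platform annotation named 34885 probes, 4030 more were named from the authors' table, and 6366 stayed unnamed. Each of 40 lists (861 genes, 779 kept) used a gene's brightest probe. Named by rule were 14 genes of heart failure, the 16 strongest rises and 12 strongest falls called both with and without heart 11 (ranked by the smaller change, among probes with a usable gene symbol, predicted and clone names left out, and brighter than the median of each array in the higher group, heart 11 excepted), up to 4 members per list by smallest p, and the 5 rises and 5 falls nearest to KO low EF. A few genes so taken are not reported here, although counts of named genes and list members include them, except in the tests for deviating hearts and between KO groups of single genes. The genes and lists were chosen with earlier results of these data known. Alternatives changed the scaling, background correction, filter, values, chip block, age, array weights, replicate block and hearts; leaving out WT 8 to 11, with or without heart 11, was added after seeing the data. Tables and figures used Python 3.11.15, pandas 2.3.3, numpy 2.4.6, scipy 1.17.1 and matplotlib 3.10.9.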

Additional observations from a re-analysis of the deposited data

Results flagged for a closer look

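In the KO high EF group, 47 measures were tested for a heart that stood far from the other 6, and 9 did so. Chance gives about 1 in 20, but the measures share the same arrays and are not independent, so that rate is no yardstick here. Heart 11 accounted for 7: its median correlation with the other arrays of 0.7777, and its values of 12.40 for Gdf15, 15.56 for Ankrd1, 6.01 for Col3a1, 5.90 for Lox, 5.92 for Slc40a1 and 5.67 for Kifap3. Gdf15 stood above the other hearts, and Col3a1, Lox, Slc40a1 and Kifap3 lay below them and below the array median. Heart 7 was low in Art4 at 7.71, and heart 8 was lowest in Nppa at 15.90, in a group that spans 15.90 to 15.99.

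Of 44 genes compared between the KO groups, 10 differed past the threshold, and all 10 lay farther from WT in KO low EF hearts. Over all probes 0.932% were higher and 1.99% lower in KO low EF hearts. The 44 are no neutral sample, since some were chosen for a large change against WT and some for the smallest gap between the KO groups. The KO low EF minus KO high EF difference was 1.31 for Nmrk2, 1.13 for Lgals3, 1.00 for Mfap4, 0.84 for Mfap5 and 0.58 for Col1a1. Among falls it was -0.98 for Acot1, -0.87 for Ttll1, -0.83 for Gpr22, -0.82 for Kcnv2 and -0.69 for Amy2a5.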

How the results depend on the processing

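Of the 28 strongest rises and falls among probes with a usable gene symbol, 25 passed the threshold under all 32 alternatives, and Comp, Lox and Kcnk1 lost it with the replicate block. For KO high EF against WT, 3661 probes passed, against 1710 with arrays scaled to a common median and 1532 with the replicate block, and 3191 to 4776 when 1 heart was left out. For KO low EF against KO high EF, 743 probes passed, against 18 with median scaling, 186 with median scaling without heart 11, 213 with the chip as a block, 1977 with array weights, 2 with the replicate block and 446 without WT 8 to 11. Leaving out 1 heart gave 431 (without KO high EF 13) to 1123 (without KO high EF 8). Rplp1 reversed with median scaling (-0.03). Of 180 named genes, 39 no longer passed the threshold with median scaling and 37 with the replicate block; the causes were not tested. Replicate numbers 7 to 11 do not pair the samples: same-numbered deviations correlated at 0.171, -0.011, 0.066, 0.057 and 0.04. The replicate block compares the KO groups only through WT hearts, since no KO low EF heart shares a number with a KO high EF heart. KO high EF hearts 12 and 13 share their number with no other heart and add nothing to the contrasts of that block. Probes near the array median give only weak bounds on a change.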

Other observations

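Some probes followed neither genotype nor ejection fraction, and they were singled out after their values were seen. A probe named Mff, for a mitochondrial fission factor, measured 6.73 in KO high EF 9, 6.91 in KO low EF 1 and 6.79 to 6.93 in WT 8 to 11, against 9.80 to 11.25 in all other hearts. Another Mff probe did not show that split, with 7.39 in KO high EF 11 and 9.93 to 10.80 in all other hearts. A probe named Cops8, for a subunit of the COP9 signalosome, measured 7.95 in KO high EF 9, 6.07 in KO high EF 11 and 7.66 to 7.98 in WT 8, 9 and 10, against 10.64 to 11.85 in all other hearts.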
